A study of Mus musculus with 9 samples.

Results

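The 4 microRNAs (miRNAs) described here, miR-10a, miR-10b, miR-196a and miR-196b, are encoded inside the Hox gene clusters. They were taken by name from the 582 miRNA probes of a bead array, as the rows named for the mature mouse miRNA, and each matched 1 probe. Hairpin-named, star-arm and retired probes were not counted as members. Whole bone marrow came from 8 mice, all female C57Bl6/J at 6 weeks of age. In one group 5 mice were untreated, and in the other 3 mice had been given 5-fluorouracil (5-FU), an antimetabolite that kills dividing cells, once at 150 mg/kg intraperitoneally and were studied at day 4. Marrow of both groups had its red cells lysed, and total RNA was used. Of the 9 arrays, 6 made up batch 1 (the untreated mice and 5-FU animal 1) and 3 made up batch 2 (the 5-FU mice, animal 1 again among them), and the labels warn against taking batches as biological replicates. Values are log2 fluorescence with a floor at 3, and 5-FU animal 1 is the mean of its arrays unless its arrays are given apart.

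Hox genes encode the transcription factors that set position along the body axis, and several of them, such as Hoxa9 and Hoxb4, are also active in blood stem and progenitor cells and shut down as these cells mature. The miRNAs that lie between them are transcribed from the same clusters and can repress Hox mRNAs in turn; miR-196 pairs almost perfectly with a site in the Hoxb8 mRNA and directs its cleavage. miR-10a and miR-10b are known from myeloid leukaemias with high Hox expression, and miR-196b from leukaemias with rearranged MLL. A miRNA recognises its targets mainly through its seed, bases 2 to 8 from the 5′ end.

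The mature sequences are shown, from RefSeq on the GRCm38.p6 build, because each pair differs at a single base; all 4 members were matched there. They are written 5′ to 3′ with the seed in capitals.
miR-10a: uACCCUGUagauccgaauuugug
miR-10b: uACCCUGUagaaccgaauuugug
miR-196a: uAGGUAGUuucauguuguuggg
miR-196b: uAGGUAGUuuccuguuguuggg
Counting from 1 at the 5′ end, miR-10b differs from miR-10a by U12A (22 of 23 bases identical, 95.7%), and miR-196b differs from miR-196a by A12C (21 of 22 bases identical, 95.5%). Both differences lie outside the seed. Among the 1679 mature mouse miRNA names in the RefSeq table, the seed ACCCUGU is held by miR-10a and miR-10b alone and AGGUAGU by miR-196a and miR-196b alone. The sources used here give no probe sequences, and how far the probes of a pair capture each other's miRNA was not tested.

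Mature miR-10a lies at chr11:96317186-96317208 on the plus strand. Its hairpin falls within the span of Hoxb3 and 992 bases from Hoxb4. Mature miR-10b lies at chr2:74726074-74726096 on the plus strand, within the spans of Hoxd3 and Hoxd4. miR-196a has 2 loci with the same mature sequence, at chr11:96265187-96265208 between Hoxb13 and Hoxb9 (6064 bases from Hoxb9) and at chr15:102973365-102973386 between Hoxc10 and Hoxc9 (1451 and 3597 bases away). Its probe cannot tell the loci apart. Mature miR-196b lies at chr6:52230129-52230150 on the minus strand, between Hoxa9 (2710 bases from its hairpin) and Hoxa10 (1031 bases). The first miR-196a locus and miR-196b also lie within the annotated long non-coding RNAs Gm51876 and Gm52902.

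**Figure D1:**
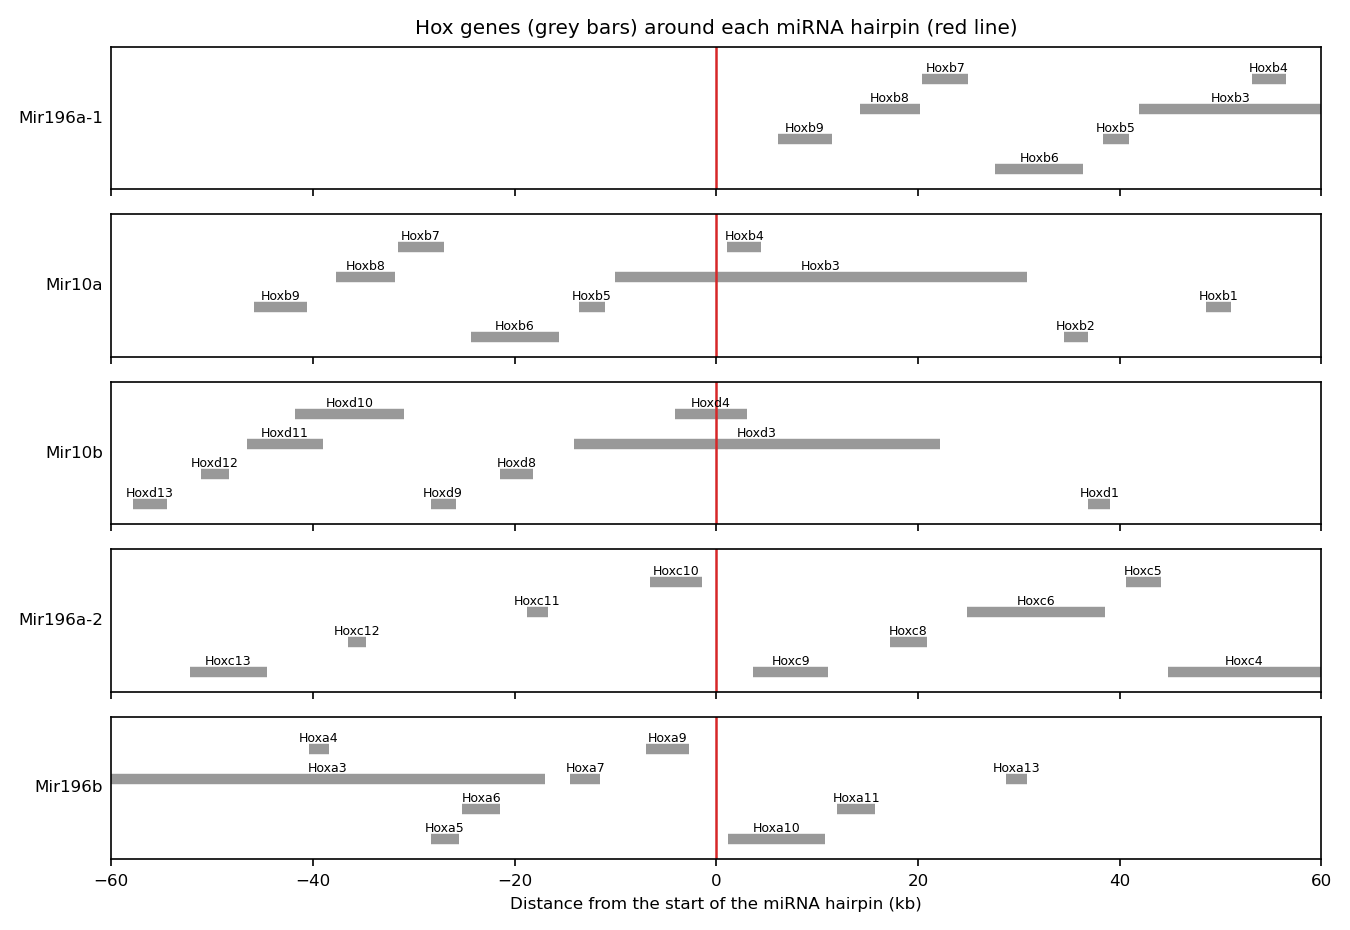
Hox genes (grey bars, RefSeq spans) within 60 kb on either side of each miRNA hairpin (red line), with distance from the hairpin's start in kb on the x axis and 1 row per locus. Mir10a lies within Hoxb3 and Mir10b within Hoxd3 and Hoxd4, while Mir196a-1, Mir196a-2 and Mir196b lie outside the Hox gene spans, each next to a Hox9 gene (Hoxb13 lies beyond the window).

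All 4 members lay above the floor in all 8 animals and so passed the filter for testing (above the floor in at least 3 animals), which 379 of the 582 probes passed. In the deposited values miR-196a was higher after 5-FU, while miR-10a, miR-10b and miR-196b were lower. Each change passed the test over all tested probes (limma, Benjamini-Hochberg adjusted p under 0.05), as did 40.6% of all tested probes, 15.6% being higher and 25.1% lower. The groups did not overlap for any of the 4, which was also true of 49.9% of tested probes. The median change of all tested probes was -0.16 on the log2 scale. The low values of miR-10a and miR-10b were those of the batch 2 arrays in the deposited table, and neither miRNA passed the test in raw values. Those raw fits do not separate batch from treatment either. In 5-FU animal 1 the raw value at an equal total changed from batch 1 to batch 2 by -0.01 for miR-10a and 0.52 for miR-10b. For miR-196a and miR-196b it changed by 0.53 and 0.27. With a probe-specific batch 2 term (described below) taken out, miR-10a passed (-0.56, limma adjusted p = 0.0120) and miR-10b did not (-0.21, 0.503). On the treated batch 1 array miR-10a was already just below all untreated animals, and miR-10b was within their range. The direction of miR-196a and of miR-196b was the same in all handlings tried. Whether a bulk value reflects fewer cells of a type or less RNA per cell cannot be told apart.

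The deposited log2 level of miR-196a in untreated animals 1 to 5 was 6.93, 7.70, 7.33, 8.30 and 7.63. In 5-FU animal 1 it was 8.83 on the batch 1 array and 9.16 on the batch 2 array, and animals 2 and 3 stood at 8.83 and 9.14. Every treated array lay above every untreated one, with the untreated animals far more spread than the treated ones. The group means were 7.58 ± 0.50 (SD, n = 5) and 8.99 ± 0.15 (SD, n = 3), which is 1.41 higher after 5-FU (SE 0.29, 2.65-fold, limma adjusted p = 0.00948). This ranked 5 of 379 among rises. The spread of untreated animals, at an SD of 0.50, was larger than the median of 0.32 over tested probes, and 89 probes had a larger one.

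miR-196b, which shares the miR-196a seed, moved the other way. Its level in untreated animals 1 to 5 was 8.72, 8.74, 9.06, 9.11 and 9.04. In 5-FU animal 1 it was 8.37 and 8.38 on the arrays of batch 1 and batch 2, and in animals 2 and 3 it was 7.91 and 8.13. All treated arrays were below all untreated ones, and the 2 arrays of 5-FU animal 1 gave nearly the same value. The means were 8.93 ± 0.19 (n = 5) and 8.14 ± 0.24 (n = 3), giving -0.79 for 5-FU minus untreated (SE 0.14, limma adjusted p = 0.00598), so that the untreated level was 1.74-fold the treated one.

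For miR-10a the untreated animals 1 to 5 gave 11.82, 11.63, 12.09, 11.69 and 11.91. The treated arrays split by batch: 5-FU animal 1 was at 11.58 in batch 1 and at 10.74 in batch 2, and animals 2 and 3 were at 10.76 and 10.84. The batch 1 array of the treated animal lay just below the lowest untreated animal, whereas the 3 batch 2 arrays lay together well below it. Over animals the means were 11.83 ± 0.18 (n = 5) and 10.92 ± 0.21 (n = 3), giving -0.91 for 5-FU minus untreated (SE 0.13, 95% interval -1.23 to -0.59, limma adjusted p = 0.00312).

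miR-10b showed the same split more widely. Untreated animals 1 to 5 were at 9.05, 8.84, 9.92, 9.10 and 9.30, 5-FU animal 1 at 8.95 in batch 1 and 7.82 in batch 2, and 5-FU animals 2 and 3 at 7.77 and 8.02. The treated batch 1 array fell inside the untreated range, and the 3 batch 2 arrays fell below it. The means over animals were 9.24 ± 0.41 (n = 5) and 8.06 ± 0.31 (n = 3), giving -1.18 for 5-FU minus untreated (SE 0.26, 95% interval -1.81 to -0.56, limma adjusted p = 0.0119). In the authors' deposited table the false discovery rate was 0.0348 for miR-10a and for miR-10b, 0.00741 for miR-196a and 0.00858 for miR-196b, in a set of 168 probes of which 54.8% had a rate under 0.05. Its p-values were recovered by testing 5 untreated against 4 treated arrays with unequal variances, which counts both arrays of 5-FU animal 1.

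**Figure D2:**
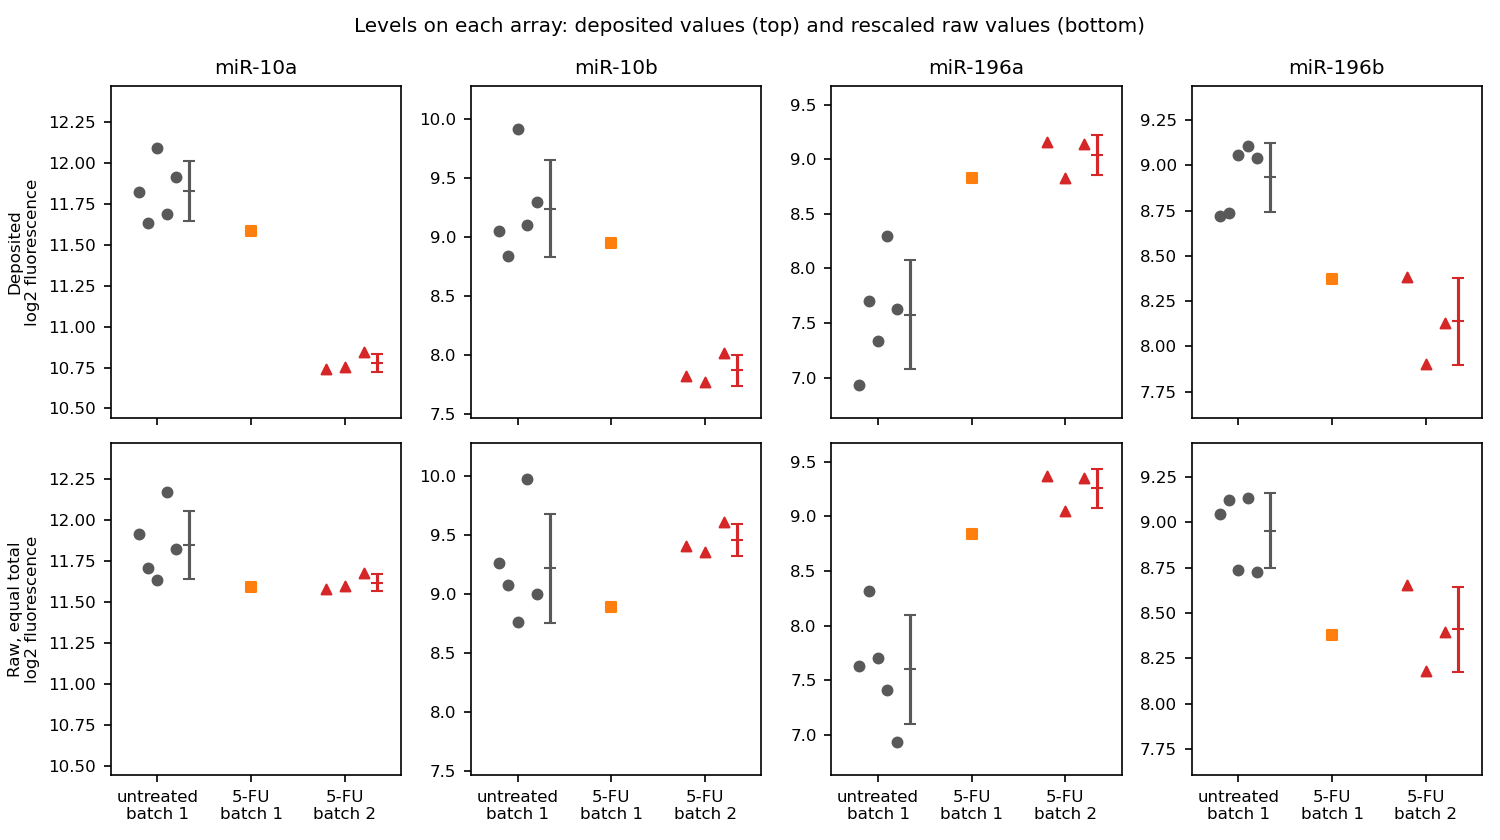
Log2 fluorescence of each member (columns) on each array, in the deposited values (top) and in raw values scaled to an equal total (bottom). Grey circles are untreated animals of batch 1, the orange square is 5-FU animal 1 in batch 1, red triangles are the 3 treated arrays of batch 2, and bars give the mean ± SD over arrays. The treated arrays of batch 2 drop for miR-10a and miR-10b in the top row. In the bottom row those of miR-10b lie within the untreated range. Those of miR-10a lie at its lower end or just below it (11.58, 11.60 and 11.68, against 11.63 to 12.17 in untreated animals). miR-196a is high and miR-196b low on treated arrays of both rows.

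Because untreated animals were run in batch 1 alone, batch and treatment cannot be told apart from the batch 2 arrays alone, and only 5-FU animal 1 links the batches. The comparison free of batch is 1 treated array against 5 untreated arrays. Within batch 1 the changes were 1.25 for miR-196a (SE 0.52), -0.56 for miR-196b (SE 0.20), -0.24 for miR-10a (SE 0.19) and -0.29 for miR-10b (SE 0.43). This fit takes the spread from the untreated arrays and assumes that the lone treated array varies like them. None of the 4 passed there (limma adjusted p = 0.348, 0.272, 0.702 and 0.884; before adjustment miR-196b alone was under 0.05), in a comparison that called 3.17% of probes. A batch term fitted to the 9 arrays gave the same changes, since they rest on the same treated array, and again none passed (limma adjusted p = 0.179, 0.217, 0.489 and 0.774 in that order, 9.76% of probes called; before adjustment both miR-196 members were under 0.05). The batch term fit counts each array of 5-FU animal 1 as a sample of its own. Its p-values thus take arrays of 1 animal as independent. The intervals were wide: the 95% interval of the batch 1 change ran from -0.75 to 0.26 for miR-10a and from -1.43 to 0.84 for miR-10b. For miR-196a and miR-196b the size within batch 1 was 1.25 against 1.41 over all animals and -0.56 against -0.79. For miR-10a and miR-10b it was -0.24 against -0.91 and -0.29 against -1.18.

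The raw table gives the same arrays before normalization. miR-10b fluorescence in untreated animals 1 to 5 was 808, 701.5, 409, 1734 and 593 units. On treated arrays it was 496.5 in batch 1 and 1025, 864 and 1183.5 in batch 2, inside the untreated range throughout. The highest background reading for this probe was 59 units in the water wells. miR-196a fluorescence was 260.5, 398, 187, 302 and 147 in untreated animals, 440 on the treated array of batch 1, and 958, 668 and 956 in batch 2. Every treated array exceeded every untreated one before any scaling, and no background well read above 32 for this probe.

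miR-10a fluorescence was 4734, 4012, 2599, 7682 and 3810 in untreated animals, 2877 on the treated array of batch 1, and 4378, 3841.5 and 4749.5 in batch 2. The treated arrays again lay inside the untreated range. miR-196b fluorescence was 658, 680, 360, 950 and 457 in untreated animals, 323 on the treated array of batch 1, and 587, 372 and 500 in batch 2. Unscaled, its groups overlapped, with the treated batch 1 array the lowest of all 9.

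The raw values were then background-subtracted and scaled so that all arrays had the same total. On this scale miR-196a stood at 7.63, 8.31, 7.70, 7.41 and 6.94 in untreated animals and at 9.10, 9.05 and 9.35 in treated ones. miR-196b stood at 9.05, 9.13, 8.74, 9.14 and 8.73 in untreated animals and at 8.52, 8.18 and 8.40 in treated ones. Treated animals were above all untreated ones for miR-196a and below all of them for miR-196b. miR-196a went from 7.60 ± 0.50 (SD, n = 5) to 9.17 ± 0.16 (SD, n = 3), up by 1.57 (SE 0.28, limma adjusted p = 0.00489), and ranked 8 of 314 among rises. miR-196b went from 8.95 ± 0.21 to 8.37 ± 0.17, giving -0.59 (SE 0.16, limma adjusted p = 0.0296). Among the 314 probes tested there, 27.4% had groups that did not overlap and 21.3% were called. For miR-10a the untreated animals gave 11.92, 11.71, 11.63, 12.17 and 11.82 and the treated ones 11.58, 11.60 and 11.68. For miR-10b the untreated animals gave 9.27, 9.08, 8.76, 9.98 and 9.0 and the treated ones 9.15, 9.36 and 9.61. Treated animals overlapped with untreated ones for both. miR-10a was at 11.85 ± 0.21 and 11.62 ± 0.05, a difference of -0.23 with a 95% interval of -0.57 to 0.11 (limma adjusted p = 0.316). miR-10b was at 9.22 ± 0.46 and 9.37 ± 0.23, a difference of 0.16 with an interval of -0.45 to 0.76 (limma adjusted p = 0.739). With quantile normalization of the raw values miR-10a was at -0.28 (limma adjusted p = 0.0950) and miR-10b at 0.05 (0.826), with 31% of probes called. Scaled to the control beads they were at -0.15 (limma adjusted p = 0.861) and 0.23 (0.851), and miR-196b was at -0.51 and did not pass (0.418), with 6.33% of probes called. Centring the deposited values on each array's median called 52.5% of probes, with miR-196b at -0.32 and not among them (limma adjusted p = 0.0928).

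The deposited and raw tables diverge in batch 2. In batch 1 each deposited column tracked the log2 raw signal of 1 raw column up to a constant per bead pool, with an SD of 0.03 to 0.07 over bright probes. The 5 untreated columns, however, each matched a raw column named for another untreated animal, so untreated values from the tables are not paired by animal; the groups are not affected. In batch 2 the deposited values carried an additional term per probe, nearly the same on its 3 arrays, whose log2 values over 220 probes had an SD of 0.52. Centred on the median of the bead pool (all 4 members are in pool 1), this term was -1.17 for miR-10b and -0.41 for miR-10a, against 0.21 for miR-196a and 0.15 for miR-196b. Of these probes, 2.27% had a lower term than miR-10b, and 20.5% had a lower one than miR-10a. Taking the term out returns the raw differences between probes of a pool by construction, on the scale of the deposited values, and so is no separate test. It left a median change over tested probes of -0.23, against -0.05 in equal-total raw values. On this scale miR-10b was at -0.21 (SE 0.24, limma adjusted p = 0.503) and miR-10a at -0.56 (SE 0.11, adjusted p = 0.0120). miR-196a was then at 1.23 (adjusted p = 0.0181) and miR-196b at -0.92 (adjusted p = 0.00668), and 37.5% of probes were called. Over 204 probes the term ran opposite to the raw batch 2 minus batch 1 difference of 5-FU animal 1 (Pearson r = -0.76). This is partly by construction, as both use the batch 2 raw values. No source used here gives the origin of the term, and it was not tested.

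5-FU animal 1 was profiled in both batches. Its deposited batch 2 value was below its batch 1 value by a difference of -0.84 for miR-10a and -1.12 for miR-10b, while the median difference over tested probes was 0 (SD 0.35). Of the 379 probes, 11 had a difference as low as miR-10a or lower and 6 as low as miR-10b or lower. In raw values with an equal total the same arrays differed by -0.01 for miR-10a and by 0.52 for miR-10b. The differences for miR-196a were 0.33 deposited and 0.53 raw, and those for miR-196b were 0.01 and 0.27.

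**Figure D3:**
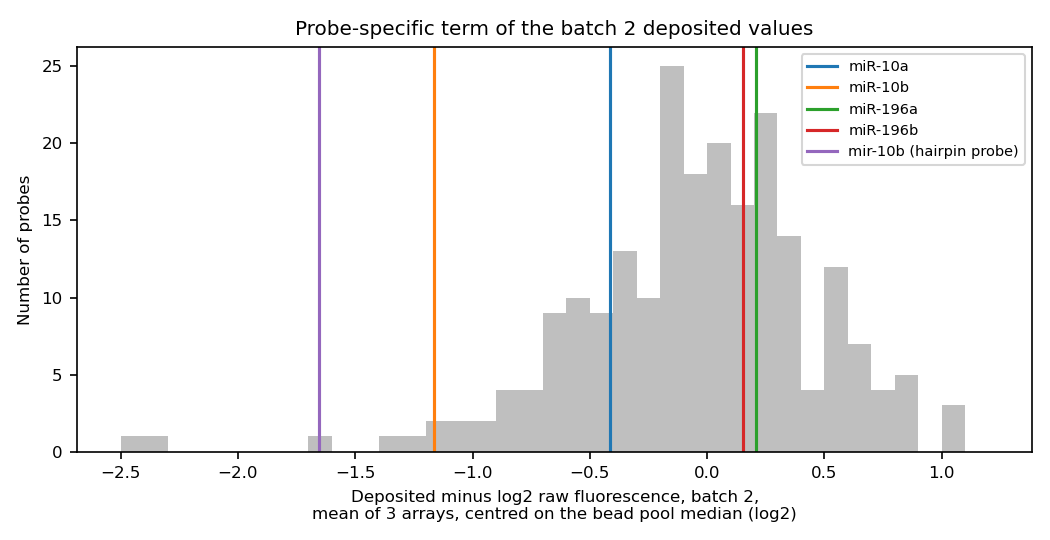
Distribution of the batch 2 term over 220 probes, as the deposited log2 value minus the log2 raw fluorescence, averaged over 3 arrays and centred on the median of the bead pool (x axis, log2 units), with the number of probes on the y axis. Coloured lines mark the 4 members and the hairpin-named mir-10b probe: miR-10b (-1.17) and the hairpin probe (-1.66) lie in the lower tail, miR-196a (0.21) and miR-196b (0.15) near the middle.

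**Figure D4:**
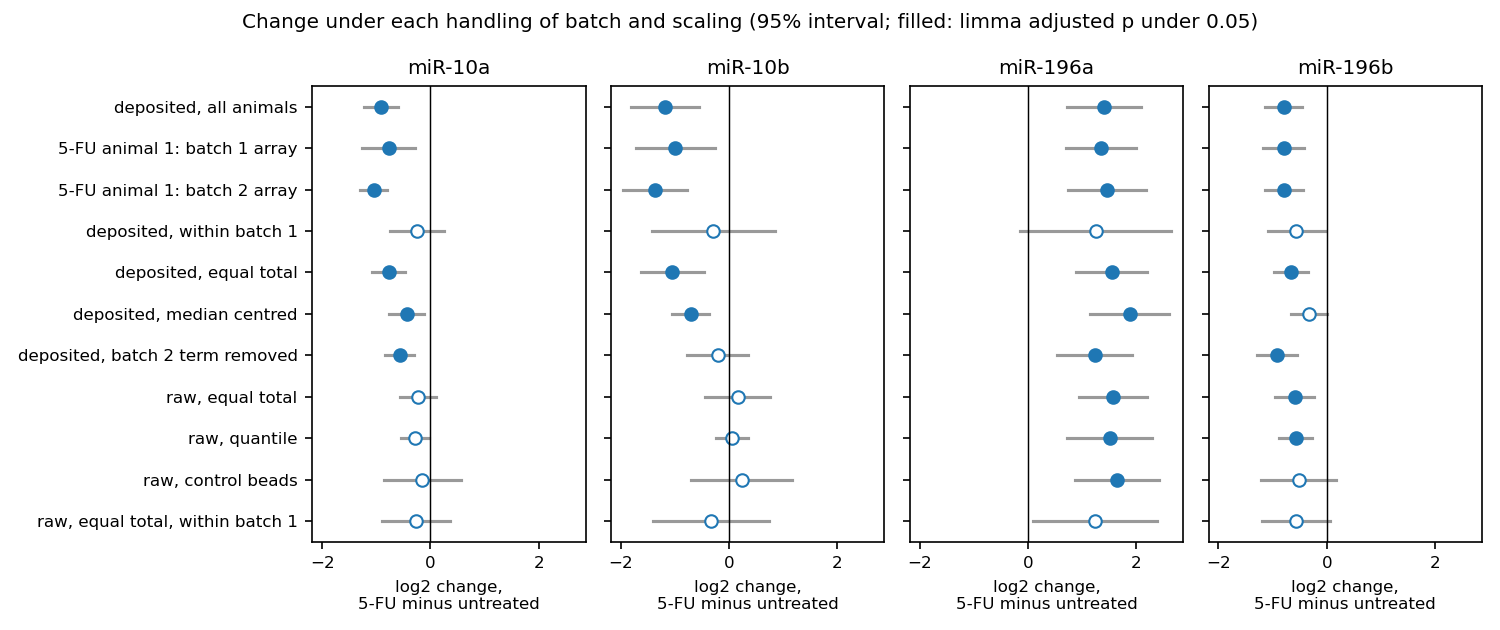
Change of each member (5-FU minus untreated, log2, x axis) under 11 handlings of batch and scaling, with 95% intervals, filled where the limma adjusted p was under 0.05. miR-196a lies above 0 and miR-196b below 0 in every row, while miR-10a and miR-10b lie closer to 0 within batch 1 and in raw values.

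The members of a pair sit on the same array and in the same bead pool, so their difference within an animal does not depend on a scaling factor per array. Probes differ in brightness, so the shift of this difference between groups is compared and not its level. The difference of miR-196a minus miR-196b was -1.36 ± 0.43 (SD, n = 5) without treatment, from -1.79 to -0.81, and 0.85 ± 0.21 (SD, n = 3) after 5-FU, from 0.61 to 1.01. Treated animals lay above all untreated ones for miR-196a and below all of them for miR-196b. The groups therefore could not overlap in this difference, and the p of its test was fixed beforehand. The difference was 2.20 higher after 5-FU, with no overlap (two-sided exact permutation test, 56 possible splits, p = 0.0357, the smallest this design allows, and 0.0714 after adjustment over the 2 pairs tested). It was 1.81 higher within batch 1, where no p under 0.333 was possible, and 2.16 higher in the raw values at an equal total. The difference of miR-10a minus miR-10b was 2.59 ± 0.25 in untreated and 2.86 ± 0.11 in treated marrow, a shift of 0.27 (exact permutation p = 0.0714, two-sided, 0.0714 adjusted). In raw values with an equal total the shift was -0.39 (exact permutation p = 0.107, two-sided) and by quantiles -0.33 (exact permutation p = 0.0357), so the direction of this pair's difference turned with the table used. Only the contrast between miR-196a and miR-196b kept its sign in both tables.

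A further probe is named for the mir-10b hairpin. The hairpin, from RefSeq (GRCm38.p6, chr2:74726070-74726137, plus strand), is shown with the mature miR-10b arm in capitals, since a probe named for it may lie on the mature arm, on the opposite arm or in the loop.
mir-10b hairpin: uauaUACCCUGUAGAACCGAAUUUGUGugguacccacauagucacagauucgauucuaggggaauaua
Untreated animals 1 to 5 had 8.47, 8.49, 9.32, 8.66 and 8.80 on this probe, 5-FU animal 1 had 8.07 in batch 1 and 6.55 in batch 2, and animals 2 and 3 had 6.68 and 7.0. All treated arrays lay below all untreated ones, with those of batch 2 far lower. The pattern over animals resembled that of the mature miR-10b probe (Pearson r = 0.98 over 8 animals, as a description; the probes share arrays and normalization). Its change was -1.75 (SE 0.23, limma adjusted p = 0.00215) in deposited values, -0.68 within batch 1 and 0.02 in equal-total raw values. Its batch 2 term was -1.66, and 0.909% of probes with a term had a lower one. A retired probe named for mir-10 stood at the floor in all 8 animals.

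Other relatives were miR-99a, miR-99b, miR-100, miR-125a-5p and miR-125b-5p, which descend from the same ancestral family as miR-10 and are known from stem and progenitor cells. Of these 5, none rose and 1 fell, where 15.6% of all tested probes were called higher and 25.1% lower. The median change was -0.28 against -0.16 over all tested probes. The fall was that of miR-125a-5p, at -0.51 (SE 0.06, limma adjusted p = 0.00104). It was -0.45 within batch 1 and with the batch term, where it passed counting both arrays of 5-FU animal 1 (limma adjusted p = 0.0217). A replicate block, which matches the groups by animal number, gave -0.51 (limma adjusted p = 0.0473). Those numbers name different animals in the 2 groups, so that fit adds no support. The miR-125a-5p change was -0.01 in equal-total raw values and 0.07 with the control beads. It did not pass without 5-FU animal 2 or 3 (limma adjusted p = 0.0522 and 0.0516). miR-99b was at 0.38 in deposited values (limma adjusted p = 0.249) and at 0.98 in those raw values (adjusted p = 0.0175). miR-99a (-0.32), miR-100 (-0.28) and miR-125b-5p (-0.19) did not pass. miR-615-3p, from the Hoxc cluster, was at the floor in each untreated animal and reached at most 3.08 after 5-FU.

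The probes for mature mouse miRNAs whose levels over the 8 animals were most like each member were taken by Pearson correlation among 205 candidates, as a description. These correlations share the arrays, the scaling, the group difference and the batch. For miR-196a they were miR-218 (r = 0.96), miR-143 (0.92) and the endothelial miR-126-3p (0.89), which changed by 1.63, 1.11 and 0.90. For miR-196b they were miR-19a (0.99), miR-20b (0.98) and miR-298 (0.97), the first pair from the miR-17 cluster group of proliferating cells. miR-10a was most like miR-192, miR-106a and miR-27b (0.98 to 0.99), and miR-10b most like miR-320, miR-107 and miR-7a (0.97 to 0.98). Between members, r was 0.97 for miR-10a and miR-10b and -0.71 for miR-196a and miR-196b.

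Marker miRNAs of other cells in or beside the marrow moved with miR-196a. Of 6 stromal and smooth muscle miRNAs tested, 3 rose and none fell (median change 0.80), and the log2 of their summed signal was 10.84 to 11.72 in untreated and 12.03 to 12.32 in treated animals. Both endothelial miRNAs, miR-126-3p and miR-126-5p, rose, with summed levels of 10.95 to 11.55 and 12.26 to 12.44. All 3 skeletal muscle miRNAs tested rose (median 1.04), with sums of 12.23 to 13.24 and 13.64 to 13.74. These counts stand against 15.6% of all tested probes called higher. On the batch 1 array of 5-FU animal 1 these sums were 12.29, 12.24 and 13.80, above all untreated animals. With the batch term, which counts both arrays of 5-FU animal 1, miR-143 and miR-126-5p passed (limma adjusted p = 0.0181 and 0.00762). The other called markers of these lists did not, namely miR-145 (0.300), miR-218 (0.226), miR-126-3p (0.154), miR-1 (0.247), miR-133b (0.163) and miR-206 (0.328). No marker in these lists was at the floor. The lymphocyte list (miR-150, miR-342-3p, miR-181a and miR-181b) moved with miR-196b: 4 of 4 fell (median -0.89, against 25.1% of all tested probes called lower), with sums of 13.45 to 13.57 and 12.55 to 12.73. On the batch 1 array of 5-FU animal 1 the sum was 12.88, below all untreated animals. Within batch 1 miR-150 was at 0.04 and did not fall, while miR-342-3p, miR-181a and miR-181b were at -1.04, -0.80 and -1.45. In equal-total raw values the list's median was -0.38, with miR-150 at 0.09 and miR-342-3p at 0.16. The part of these cells in the changes of miR-196a and miR-196b was not tested.

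Markers of the labelled tissue were high, and so was the skeletal muscle miR-1 (12.38 in untreated and 13.19 in treated animals). The blood-cell miRNAs miR-142-3p and miR-142-5p stood at 12.61 and 12.41 in untreated marrow and the myeloid miR-223 at 12.72, and none of the 3 passed the test. Of 3 erythroid miRNAs, miR-451 fell by 0.70 and was at -0.01 within batch 1, while miR-144 (-0.12) and miR-486 (0.54, and 0.84 in equal-total raw values) did not pass the test on deposited values. miR-122, miR-124 and miR-9, of liver and neural tissue, had group means between 3 and 3.62, at or near the floor, although miR-124 passed the test against untreated animals that were all at the floor (limma adjusted p = 0.0132). Summed raw fluorescence per array was 336483 to 679696 units, and precision is limited by how few arrays there were.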

How the data were processed

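The members, marker lists and tests were chosen with earlier results of these data known. Per the series design text, the authors scaled the deposited log2 values to an equal total miRNA signal (summed, batch 1 arrays lay between 401283 and 402143 and batch 2 arrays between 355655 and 362039), and 46.8% of values lie at the floor of 3. The deposited raw table holds fluorescence intensity without normalization, per the file headers, with 12 control rows and 3 background wells. Each p-value or false discovery rate named as deposited is the authors' own. Upstream software was not given in the sources used here.

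Groups were compared with limma 3.58.1 (R 4.3.3; lmFit, eBayes, two-sided, Benjamini-Hochberg over 379 probes, threshold 0.05) on 8 animals. Arrays of 5-FU animal 1 were averaged first, except in fits that took 1 of its arrays alone and in the batch term fit. The batch term fit counted its arrays separately. The fit on 8 animals was tested on simulated data, where it recovered 34.8%, 62.8% and 75.7% of changes of 0.5, 1 and 2 log2 units, with 3.45% false calls. For alternatives, raw intensity minus the higher water well was scaled to an equal total, by quantiles or to the control beads, then floored at 3. The batch 2 term was computed for probes over 20 units after this subtraction.

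Named miRNAs were the members, other forms of them, miR-615 arms, the miR-10 relatives, the marker lists and the 3 probes most correlated with each member. miR-199a-3p, miR-199b, miR-133a and miR-615-5p found no mature mouse probe. Animal numbers shared by the groups name different animals, so they were not treated as pairs. By the deposited numbers their deviations correlated at 0.05, 0.35 and 0.17. The raw values give the untreated numbers in another order, so these correlations do not bear on pairing.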

Additional observations from a re-analysis of the deposited data

How the results depend on the processing

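Of 379 probes, 154 were called; the count was 102 with the batch 1 array alone for 5-FU animal 1, 37 with batch as a term, 12 within batch 1, 67, 97 and 20 in raw values scaled to an equal total, by quantiles and to the control beads, 88 above a log2 value of 7, and 22 in raw values within batch 1. Leaving out 1 animal gave 79 to 168 calls, with 91, 79 and 80 without 5-FU animals 1, 2 and 3, where fewer probes passed the filter. The split moved from 59 higher and 95 lower to 97 and 79 at an equal deposited total, 139 and 60 after median centring, 34 and 33 in raw values at an equal total, 50 and 47 by quantiles and 11 and 9 with the control beads. Centring moved the median change to 0.24. A t-test with equal variances on the 8 animals gave 195 calls before and 175 after adjustment. It differs from the test that recovered the authors' p-values, which took unequal variances and counted arrays.

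With the replicate block, 52 probes passed; miR-10a (-0.93), miR-10b (-1.21) and miR-196b (-0.70) did not, nor did the mir-10b hairpin probe (-1.76), and miR-196a did (1.66, limma adjusted p = 0.0473). Of 3 treated animals, 2 correlated best with the untreated animal of their own number, a hint from the data and not the design. Both use the deposited numbers of the untreated animals, which the raw table gives in another order, so the block says nothing of pairs.

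Over leaving out 1 animal, miR-10a ranged from -1.03 to -0.83, miR-10b from -1.35 to -1.01, miR-196a from 1.25 to 1.59 and miR-196b from -0.92 to -0.68, all called. The difference of miR-196a minus miR-196b ranged from 2.09 to 2.34 and that of miR-10a minus miR-10b from 0.17 to 0.33; 7 animals cannot give an exact p under 0.05. Calls were lost with the batch term and within batch 1 alike for miR-10a (-0.24), miR-10b (-0.29), miR-196a (1.25) and miR-196b (-0.56), and in raw values within batch 1 (-0.26, -0.33, 1.24 and -0.57). miR-10a lost its call in raw values at -0.23, -0.28 and -0.15 (equal total, quantiles, control beads). miR-10b turned to 0.16, 0.050 and 0.23 there and was at -0.21 without the batch 2 term. miR-196b lost its call after median centring (-0.32) and with the control beads (-0.51). The difference of miR-196a minus miR-196b was 1.81 within batch 1. That of miR-10a minus miR-10b was 0.32 with the batch 2 array alone for 5-FU animal 1, 0.050 within batch 1, -0.39, -0.33 and -0.39 in the raw scalings and -0.35 without the term. The causes were not tested. The fits within batch 1 and with the batch term rest on 1 treated array, taken to vary like the others, so a lost call there is by itself no sign of a smaller change. For miR-10a and miR-10b the change itself was smaller there, at -0.24 against -0.91 and -0.29 against -1.18 over all animals.

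Among probes that are no members, the mir-10b hairpin probe turned to 0.016, 0.073 and 0.092 in the raw scalings. miR-99a turned to 0.15 after centring and to 0.11, 0.023 and 0.18 in raw values. miR-100 turned to 0.098 in both fits that set batch apart, 0.19 after centring, 0.60, 0.55 and 0.67 in raw values, 0.083 in raw values within batch 1 and 0.26 without the term. miR-125b-5p turned to 0.28, 0.23, 0.29 and 0.30, and miR-125a-5p to 0.069 with the control beads. The raw fits within batch 1 and without the term were added after seeing the data.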
